A study of Homo sapiens with 4 samples.

Results

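The expression of 36 genes of cholesterol synthesis, uptake, trafficking and efflux, and of the machinery that controls them, was followed in HCT116, a long-established line from a human colorectal carcinoma that the labels give as wild type. Cells were exposed for 24 hours to HJ-23 at 30 µM (2 libraries) or to the vehicle alone, DMSO at 0.1% (2 libraries). HJ-23 is described by the submitters as derived from piperine, and its structure was not used here. The treatment field of the treated samples reads HJ-25, whereas their titles and the design text read HJ-23, and the titles were followed. The count tables head the libraries titled DMSO with the letter D and those titled HJ-23 with the letter C, without saying what the letters mean, so the direction of every difference rests on the titles and treatment fields. The genes were chosen by name, from a list of sterol genes, but with earlier results of these data known. Their counts beside the shares of all genes are therefore descriptions. All 36 were among the 20263 genes counted, all 36 had 10 or more counts in 2 or more libraries, and none was lost to the filter on low counts that left 14062 genes to test. Sorted by role they comprised 20 genes of synthesis (8 of the mevalonate arm and 12 of the sterol arm), 7 of the SREBP machinery, 5 of uptake, trafficking and storage, and 4 of liver X receptor (LXR) signalling and efflux.

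Cells make cholesterol from acetyl-CoA through mevalonate, isoprenoids, squalene and lanosterol. The pathway is controlled in the endoplasmic reticulum, where INSIG proteins hold the sterol sensor SCAP and its cargo, the SREBP transcription factors, while sterol is plentiful. When sterol runs low, SCAP carries SREBP to the Golgi, the proteases MBTPS1 and MBTPS2 release its active part, and genes of synthesis and uptake, INSIG1 among them, are transcribed. The nuclear receptors LXR-alpha and LXR-beta respond to oxysterols and act the other way, inducing the exporters ABCA1 and ABCG1 and the ligase MYLIP, which directs lipoprotein receptors to degradation.

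INSIG1, HMGCS1, IDI1, STARD4, INSIG2 and MSMO1 fell in HJ-23-treated cells by DESeq2's test, and 12 of the 20 synthesis genes had both treated libraries below both controls, as did 21.2% of all genes tested. The genes of the transcription factors themselves, SREBF1 and SREBF2, overlapped between groups. After the GC and length correction described further on, both were lower in both treated libraries (log2 fold changes -0.32 and -0.11). INSIG1 in treated cells was at 46.3% of its DMSO level, HMGCS1 at 42.2%, IDI1 at 56.9%, STARD4 at 59.5%, INSIG2 at 60.1% and MSMO1 at 63.6%, as fitted. No member passed an adjusted p of 0.05 over all genes with edgeR's quasi-likelihood test, where 0.0569% of all genes passed as higher and 0.0284% as lower. With DESeq2, those 6 genes fell and 0 rose, against 1.19% of all genes called higher and 1.11% called lower. DESeq2 was run without the GC and length correction described further on. The transcript GC content of the 6 ran from 37.2% for INSIG2 to 46.4% for INSIG1, against a median of 50.9% over all genes tested. At an unadjusted edgeR p below 0.05, 10 of the 36 (27.8%) were lower and 0 were higher, against 5.25% and 6.77% of all genes tested.

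Total counts were 34406649 and 34831207 in HJ-23 replicates 1 and 2, and 31120459 and 29769568 in DMSO replicates 1 and 2. The members had between 142 and 23223 counts in a library, and 15533 to 15754 of the 20263 genes had a count. No label says that replicates were separate cultures, so the p-values measure only the spread between libraries, which may be technical. Levels are CPM, counts scaled to the TMM-adjusted library size and not divided by gene length, so they compare libraries and not genes. Each log2 fold change sets HJ-23 over DMSO and has its standard error (SE) from the edgeR fit. The median log2 fold change of all genes tested was 0.0086. With 2 libraries against 2, an exact two-sided permutation test of a single value cannot give a p below 0.333, so such a test was not used. These are bulk libraries, in which fewer cells of a kind and less RNA per cell cannot be told apart. Of the epithelial markers EPCAM, KRT8, KRT18, KRT19, CDH1, CLDN4 and CLDN7, summed levels were 4563 and 5626 CPM in the HJ-23 libraries, against 5066 and 4198 CPM in the DMSO libraries, and of 17 markers of fibroblasts, leukocytes and endothelium 5 were at 0 counts in every library and 2, COL1A1 and CD68, were above 10 CPM, CD68 being a lysosomal protein found in many cell types.

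INSIG1 (ENSG00000186480), which retains SCAP in the endoplasmic reticulum and is itself an SREBP target, was at 235 and 271 CPM in the HJ-23 libraries, against 573 and 522 CPM in the DMSO libraries. Both treated libraries lay far below both control libraries. The log2 fold change was -1.11 (SE 0.15), with an adjusted p of 0.104 with edgeR and of 5.28e-07 with DESeq2. HMGCS1 (ENSG00000112972), the cytosolic HMG-CoA synthase, was at 107 and 196 CPM in the HJ-23 libraries, against 354 and 364 CPM in the DMSO libraries. The control libraries were alike, while the treated ones, though both lower, differed widely from each other. Its log2 fold change was -1.25 (SE 0.29; adjusted p 0.255 with edgeR and 0.00212 with DESeq2), and it was -1.78 with replicate 1 and -0.89 with replicate 2 as the only treated library. IDI1 (ENSG00000067064), which isomerises isopentenyl diphosphate, was at 172 and 162 CPM in the HJ-23 libraries, against 304 and 284 CPM in the DMSO libraries (log2 fold change -0.81, SE 0.13; adjusted p 0.174 with edgeR and 3.43e-04 with DESeq2). Replicates of IDI1 were close in both groups, and the groups were far apart.

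STARD4 (ENSG00000164211), a soluble carrier that moves sterol between membranes, was at 130.4 and 115 CPM in the HJ-23 libraries, against 214 and 199 CPM in the DMSO libraries (log2 fold change -0.75, SE 0.14; adjusted p 0.218 with edgeR and 0.00335 with DESeq2). INSIG2 (ENSG00000125629), the second SCAP anchor, which is less dependent on SREBP than INSIG1, was at 31.1 and 30.04 CPM in the HJ-23 libraries, against 52.5 and 49.3 CPM in the DMSO libraries (log2 fold change -0.74, SE 0.15; adjusted p 0.233 with edgeR and 0.00857 with DESeq2). Neither gene's groups overlapped, and the treated replicates of INSIG2 were nearly equal. MSMO1 (ENSG00000052802), the sterol C4-methyl oxidase, was at 275 and 252 CPM in the HJ-23 libraries, against 442 and 387 CPM in the DMSO libraries (log2 fold change -0.65, SE 0.14; adjusted p 0.235 with edgeR and 0.0171 with DESeq2). The edgeR calls depended on which library was left out. Without either DMSO library INSIG1 and HMGCS1 passed over all genes, in fits that take the lone DMSO library to vary like the HJ-23 pair, and without either HJ-23 library no gene in the genome passed.

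**Figure D1:**
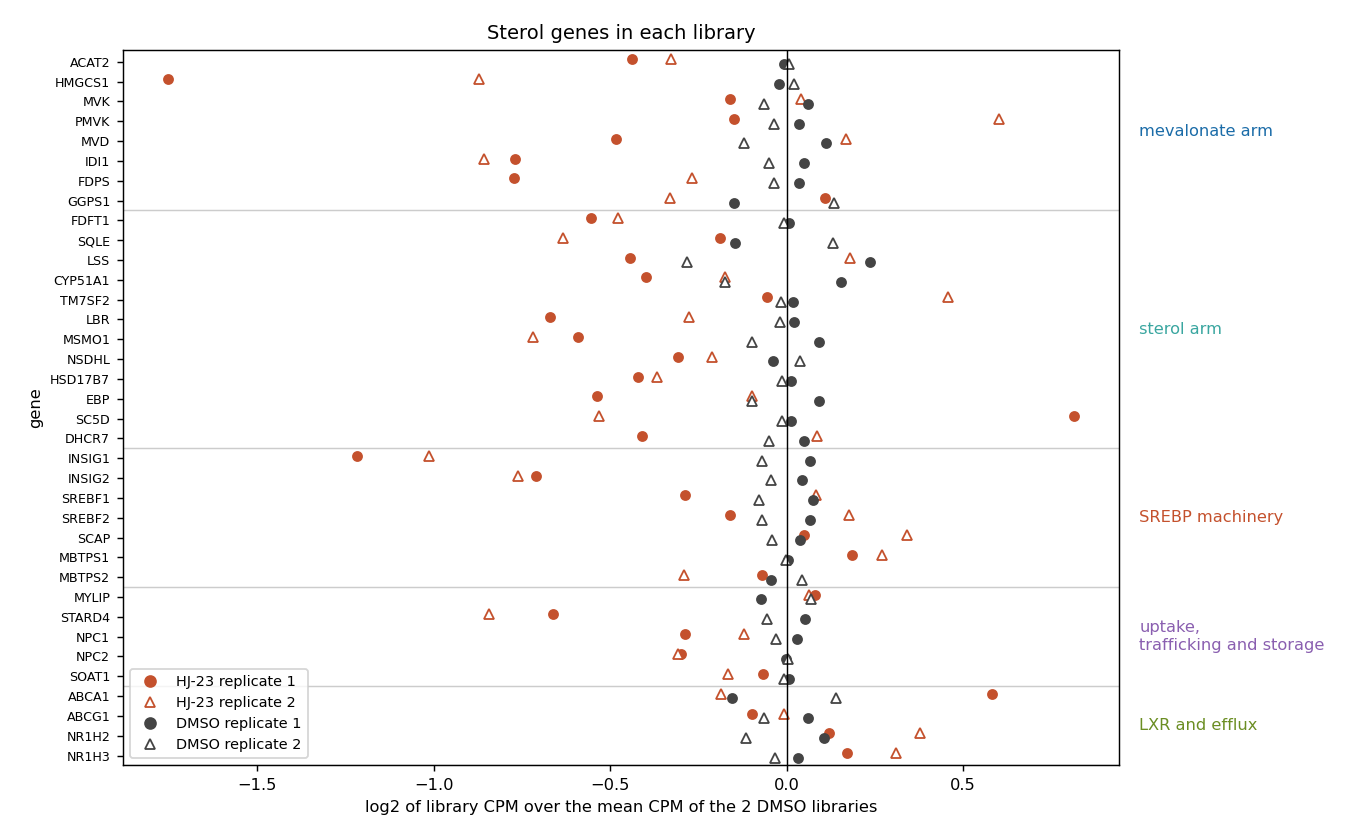
Level of each of the 36 sterol genes in each library, as the log2 of its CPM over the mean CPM of the 2 DMSO libraries, with HJ-23 libraries in orange and DMSO libraries in dark grey (filled circles, replicate 1; open triangles, replicate 2), sorted by role. INSIG1, HMGCS1, IDI1, STARD4, INSIG2 and MSMO1 have both orange points well left of 0, and SC5D and PMVK have their orange points far apart.

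The 5 genes with the smallest edgeR p among those whose groups did not overlap were INSIG1, IDI1, STARD4, INSIG2 and MSMO1. The 250 bases before the transcription start of each are shown. SREBP acts from promoters with its partner NF-Y. The genes were picked by p, and any part of SREBP or NF-Y in their levels was not tested. Sequences are RefSeq's on GRCh38.p14, 5′ to 3′ on the gene's strand, and windows were found for 32 of the 36 genes (ABCG1, ACAT2, FDFT1 and SQLE had none). Capitals mark each match, on either strand, to the NF-Y box CCAAT, the E-box CACGTG or the sterol regulatory element as TCACNCCAC. A match is a description of the letters and not evidence of binding.
INSIG1 (chr7:155297628-155297877, plus strand): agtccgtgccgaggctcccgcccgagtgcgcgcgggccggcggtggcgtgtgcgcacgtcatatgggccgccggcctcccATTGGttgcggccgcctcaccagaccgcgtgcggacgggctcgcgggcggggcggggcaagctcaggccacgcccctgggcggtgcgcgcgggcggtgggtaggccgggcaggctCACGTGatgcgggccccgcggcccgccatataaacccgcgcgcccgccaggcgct
IDI1 (chr10:1048887-1049136, minus strand): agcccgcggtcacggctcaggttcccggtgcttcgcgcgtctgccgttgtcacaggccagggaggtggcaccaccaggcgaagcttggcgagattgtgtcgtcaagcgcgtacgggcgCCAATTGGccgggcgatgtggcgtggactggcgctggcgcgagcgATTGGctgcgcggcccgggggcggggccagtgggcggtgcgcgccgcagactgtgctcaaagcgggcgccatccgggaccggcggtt
STARD4 (chr5:111512536-111512785, minus strand): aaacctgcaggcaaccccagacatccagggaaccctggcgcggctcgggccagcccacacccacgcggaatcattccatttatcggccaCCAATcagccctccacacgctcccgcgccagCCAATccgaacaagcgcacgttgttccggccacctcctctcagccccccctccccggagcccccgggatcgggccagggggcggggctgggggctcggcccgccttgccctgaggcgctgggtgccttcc
INSIG2 (chr2:118088221-118088470, plus strand): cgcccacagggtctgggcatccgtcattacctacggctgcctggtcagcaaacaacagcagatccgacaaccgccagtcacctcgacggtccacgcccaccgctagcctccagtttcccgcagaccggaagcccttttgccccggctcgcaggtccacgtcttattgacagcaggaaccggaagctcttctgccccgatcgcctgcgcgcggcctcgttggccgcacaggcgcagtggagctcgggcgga
MSMO1 (chr4:165327419-165327668, plus strand): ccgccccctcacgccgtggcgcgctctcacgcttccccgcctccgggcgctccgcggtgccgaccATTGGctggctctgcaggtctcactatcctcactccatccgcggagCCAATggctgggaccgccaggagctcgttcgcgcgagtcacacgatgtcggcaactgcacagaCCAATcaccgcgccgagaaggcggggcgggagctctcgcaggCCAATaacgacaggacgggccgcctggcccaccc

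The INSIG1 window held an NF-Y box on the opposite strand and an E-box, while the INSIG2 window, on another chromosome, held none of the 3 motifs. IDI1 held 3 NF-Y matches, the first pair overlapping each other on opposite strands. MSMO1 held 4 NF-Y boxes and STARD4 held 2. Taking 1 window per gene, the NF-Y box was in 14 of 17 windows of synthesis genes (82.4%) and in 5 of 15 windows of the other members (33.3%), against 32.0% of all 35116 RefSeq windows of this length. The E-box was in 1 of 17 and 3 of 15, against 6.35% of all windows. The sterol regulatory element in this strict spelling was in 1 of the 32 windows, that of SREBF2, against 0.883% of all windows. The 3 synthesis windows without an NF-Y box were those of PMVK, CYP51A1 and LBR, whose log2 fold changes were 0.27, -0.28 and -0.46.

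In the mevalonate arm, which builds the isoprenoid units, 7 of 8 genes had a negative log2 fold change, against 49.0% of all genes tested. The median was -0.25 (-0.37 with the GC and length correction described further on). Both treated libraries lay below both controls in 4 of the 8, as in 21.2% of all genes tested. The summed level of the arm was 665 and 892 CPM in the HJ-23 libraries, against 1229 and 1181 CPM in the DMSO libraries. These sums did not overlap, and HJ-23 replicate 1 was the lowest. Beside HMGCS1 and IDI1, the genes whose groups did not overlap were FDPS and ACAT2. FDPS (ENSG00000160752), farnesyl diphosphate synthase, was at 144 and 204 CPM in the HJ-23 libraries, against 251 and 239 CPM in the DMSO libraries (log2 fold change -0.50, SE 0.19; edgeR adjusted p 0.403). ACAT2 (ENSG00000120437), a cytosolic thiolase that makes acetoacetyl-CoA, was at 29.6 and 31.96 CPM in the HJ-23 libraries, against 39.9 and 40.3 CPM in the DMSO libraries (log2 fold change -0.38, SE 0.16; edgeR adjusted p 0.418). HJ-23 replicate 1 was the lower treated library for FDPS and ACAT2, and the fold change of FDPS was -0.80 with only replicate 1 and -0.29 with only replicate 2 as the treated library. MVK and PMVK, the kinases that phosphorylate mevalonate, MVD, the decarboxylase that follows, and GGPS1, which makes geranylgeranyl diphosphate, overlapped between groups. The log2 fold changes were -0.055 (SE 0.17) for MVK and -0.094 (SE 0.22) for GGPS1, and the signs of MVK, PMVK, MVD and GGPS1 turned on leaving out 1 HJ-23 library. PMVK was at 24.1 and 40.6 CPM in the HJ-23 libraries, against 27.4 and 26.1 CPM in the DMSO libraries, with its high value in HJ-23 replicate 2 alone. MVD was at 126 and 199 CPM in the HJ-23 libraries, against 191 and 163 CPM in the DMSO libraries, with the treated libraries outside the controls on either side. FDPS has many pseudogene copies, and its reads may be shared with them in the authors' counting.

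In the sterol arm, from squalene to cholesterol, 10 of 12 genes had a negative log2 fold change, against 49.0% of all genes tested, with a median of -0.29. Without overlap 8 were lower and 0 higher in HJ-23, against 21.2% and 24.8% of all genes tested. Summed levels were 1227 and 1317 CPM in the HJ-23 libraries, against 1711 and 1578 CPM in the DMSO libraries. FDFT1 (ENSG00000079459), squalene synthase, the first enzyme committed to sterols, was at 167 and 176 CPM in the HJ-23 libraries, against 246 and 244 CPM in the DMSO libraries (log2 fold change -0.51, SE 0.13; unadjusted p 0.00715, adjusted p 0.278, edgeR). Its replicates were close in both groups. SQLE (ENSG00000104549), squalene epoxidase, was at 153 and 113 CPM in the HJ-23 libraries, against 158 and 192 CPM in the DMSO libraries (log2 fold change -0.39, SE 0.20; edgeR adjusted p 0.472), so that HJ-23 replicate 1 nearly reached the lower control. With only replicate 1 as the treated library its fold change was -0.21, with only replicate 2 it was -0.65, and the GC and length correction gave -0.26. CYP51A1 (ENSG00000001630), lanosterol 14-alpha-demethylase, was at 136 and 159 CPM in the HJ-23 libraries, against 199.7 and 159 CPM in the DMSO libraries (log2 fold change -0.28, SE 0.17). LBR (ENSG00000143815), an inner nuclear membrane protein with sterol C14-reductase activity, was at 80.8 and 106 CPM in the HJ-23 libraries, against 130.3 and 127 CPM in the DMSO libraries (log2 fold change -0.46, SE 0.17). HJ-23 replicate 2 lay level with DMSO replicate 2 for CYP51A1 and nearer to the controls than replicate 1 for LBR. The fold change of CYP51A1 was -0.11 without DMSO replicate 1, -0.46 without DMSO replicate 2 and -0.14 once corrected for GC and length. That of LBR was -0.70 with only replicate 1 and -0.30 with only replicate 2 as the treated library, and the correction gave -0.29.

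NSDHL (ENSG00000147383) and HSD17B7 (ENSG00000132196) complete the removal of the C4 methyl groups that MSMO1 begins. NSDHL was at 31.3 and 33.4 CPM in the HJ-23 libraries, against 37.8 and 39.7 CPM in the DMSO libraries (log2 fold change -0.26, SE 0.16). HSD17B7 was at 24.8 and 25.8 CPM in the HJ-23 libraries, against 33.6 and 33.02 CPM in the DMSO libraries (log2 fold change -0.39, SE 0.16), with replicates within about 1 CPM of each other, and reads of its pseudogene copies may be shared. EBP (ENSG00000147155), the sterol delta8-delta7 isomerase, was at 66.4 and 90.1 CPM in the HJ-23 libraries, against 103 and 90.1 CPM in the DMSO libraries (log2 fold change -0.30, SE 0.19). The treated maximum and the control minimum of EBP were equal to 3 digits, and its fold change was -0.56 with only replicate 1 and -0.12 with only replicate 2 as the treated library. The edgeR adjusted p of NSDHL, HSD17B7 and EBP were 0.537, 0.405 and 0.547.

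LSS, lanosterol synthase, TM7SF2, the second C14-reductase, SC5D, the C5-desaturase, and DHCR7, the delta7-reductase, overlapped between groups. SC5D (ENSG00000109929) was at 60.7 and 23.9 CPM in the HJ-23 libraries, against 34.8 and 34.2 CPM in the DMSO libraries, so that the treated libraries lay on opposite sides of 2 nearly equal controls. LSS was at 86.1 and 133 CPM in the HJ-23 libraries, against 138 and 96.3 CPM in the DMSO libraries, and DHCR7 at 108 and 153 CPM in the HJ-23 libraries, against 149 and 139 CPM in the DMSO libraries. In these 2 genes and TM7SF2 (36.9 and 52.7 CPM in the HJ-23 libraries, against 38.9 and 37.97 CPM in the DMSO libraries), HJ-23 replicate 2 was the higher treated library. The fold changes of LSS, TM7SF2, SC5D and DHCR7 turned sign when 1 HJ-23 library was left out. Over both arms 12 of 20 synthesis genes (60.0%) were lower without overlap and 0 were higher, against 21.2% and 24.8% of all genes tested. At an unadjusted edgeR p below 0.05, 7 of the 20 were lower and 0 higher, against 5.25% and 6.77% of all genes tested. The synthesis median was -0.29, or -0.45 without HJ-23 replicate 2. DESeq2 called 3 of the 20 lower, HMGCS1, IDI1 and MSMO1, against 1.11% of all genes.

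**Figure D2:**
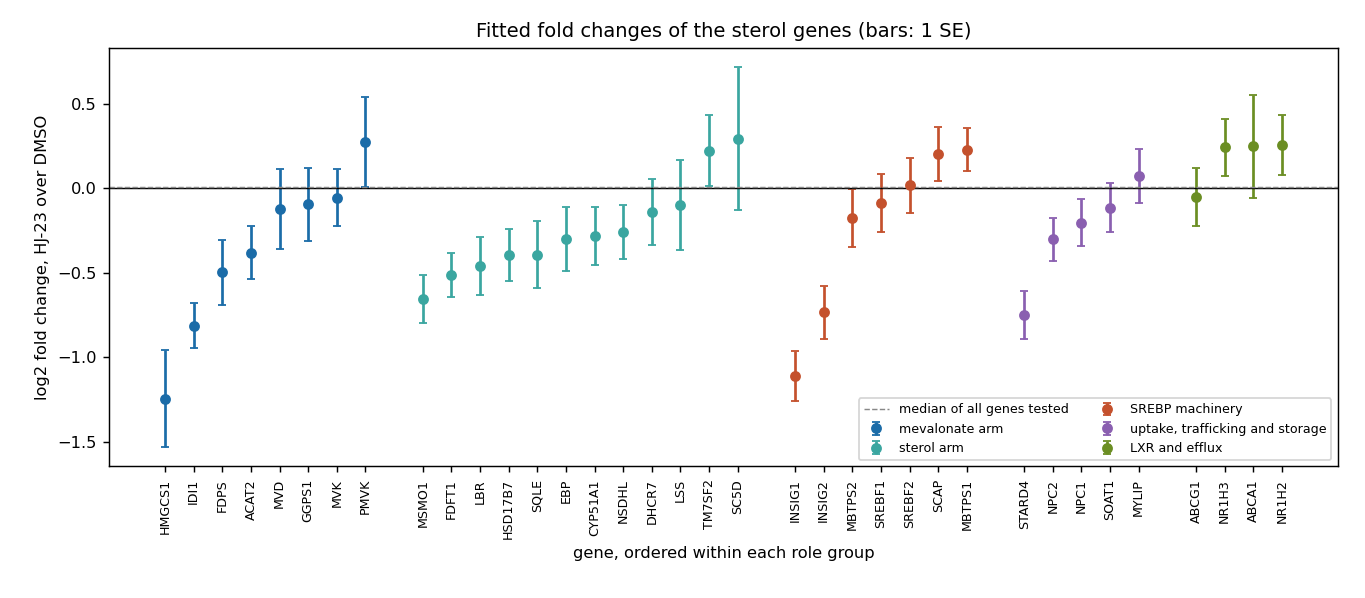
Fitted log2 fold change of each member, HJ-23 over DMSO, with bars of 1 SE, ordered within each role group; the dashed line, beside the line at 0, is the median of all genes tested. Synthesis genes run from -1.25 for HMGCS1 to 0.29 for SC5D, and the SREBP machinery splits into INSIG1 and INSIG2 below -0.7 and 5 genes between -0.18 and 0.23.

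Within the SREBP machinery the INSIG genes had the lowest fold changes. SREBF2 (ENSG00000198911), which encodes the SREBP that mainly drives sterol synthesis, was at 535 and 675 CPM in the HJ-23 libraries, against 626 and 569 CPM in the DMSO libraries (log2 fold change 0.017, SE 0.16; edgeR adjusted p 0.974). SREBF1 (ENSG00000072310), whose products mainly drive fatty acid synthesis, was at 366 and 473 CPM in the HJ-23 libraries, against 470.5 and 423 CPM in the DMSO libraries (log2 fold change -0.090, SE 0.17; edgeR adjusted p 0.857). For SREBF2 and SREBF1 HJ-23 replicate 1 was the lowest of the 4 libraries and replicate 2 the highest. The fold change of SREBF1 turned to 0.065 without HJ-23 replicate 1, and that of SREBF2 to -0.18 without HJ-23 replicate 2 and -0.073 without DMSO replicate 2. With the GC and length correction SREBF1 was at -0.32 (unadjusted edgeR p 0.00896) and SREBF2 at -0.11, both lower in both treated libraries. SCAP (ENSG00000114650), the escort, was at 78.8 and 96.5 CPM in the HJ-23 libraries, against 78.3 and 74.1 CPM in the DMSO libraries (log2 fold change 0.20, SE 0.16), and HJ-23 replicate 1 lay within 1 CPM of the higher control. With only replicate 1 as the treated library its fold change was 0.024, with only replicate 2 it was 0.32, and the correction gave 0.043. MBTPS1 (ENSG00000140943), the site-1 protease, was at 262 and 278 CPM in the HJ-23 libraries, against 231 and 230.0 CPM in the DMSO libraries (log2 fold change 0.23, SE 0.13; edgeR adjusted p 0.506). MBTPS2 (ENSG00000012174), the site-2 protease, was at 24.5 and 20.98 CPM in the HJ-23 libraries, against 24.9 and 26.5 CPM in the DMSO libraries (log2 fold change -0.18, SE 0.17), and its fold change was 0.016 with the correction. The groups of MBTPS1 stood apart, whereas for MBTPS2 and SCAP a treated library nearly touched a control. Of the 7 genes, 2 were higher and 3 lower without overlap, against 24.8% and 21.2% of all genes, and the median log2 fold change was -0.090, which turned to 0.065 without HJ-23 replicate 1. Only INSIG1 and INSIG2 were called with DESeq2, both lower, against 1.11% of all genes called lower.

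Of the uptake, trafficking and storage genes, 4 of 5 were lower without overlap, against 21.2% of all genes, and the median log2 fold change was -0.20, or -0.31 without HJ-23 replicate 2. The GC and length correction gave a median of -0.11. After it 2 of 5 were lower and 1, MYLIP, higher without overlap, against 24.6% and 26.9% of all genes in the corrected values. Summed levels were 493 and 491 CPM in the HJ-23 libraries, against 639.9 and 620.1 CPM in the DMSO libraries. NPC2 (ENSG00000119655), the soluble lysosomal sterol carrier, was at 115 and 114 CPM in the HJ-23 libraries, against 141 and 142 CPM in the DMSO libraries (log2 fold change -0.30, SE 0.13; edgeR adjusted p 0.431). NPC1 (ENSG00000141458), its membrane partner, was at 152 and 171 CPM in the HJ-23 libraries, against 190.0 and 182 CPM in the DMSO libraries (log2 fold change -0.20, SE 0.14). The replicates of NPC2 were within 1 CPM of each other in each group. SOAT1 (ENSG00000057252), which esterifies cholesterol for storage, was at 58.9 and 54.98 CPM in the HJ-23 libraries, against 61.99 and 61.3 CPM in the DMSO libraries (log2 fold change -0.11, SE 0.14). MYLIP, the LXR-induced ligase, was at 36.5 and 36.03 CPM in the HJ-23 libraries, against 32.8 and 36.2 CPM in the DMSO libraries, and its groups overlapped. With the GC and length correction, SOAT1 turned positive (0.13).

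Among LXR and efflux genes 2 of 4 were higher and 0 lower without overlap, against 24.8% and 21.2% of all genes. After the GC and length correction 0 were higher and 1 lower, against 26.9% and 24.6% of all genes in the corrected values. The median log2 fold change was 0.25 uncorrected, or 0.12 to 0.19 with any 1 library left out. ABCA1 (ENSG00000165029), which loads cholesterol onto apolipoprotein acceptors, was at 7.62 and 4.47 CPM in the HJ-23 libraries, against 4.57 and 5.61 CPM in the DMSO libraries (log2 fold change 0.25, SE 0.30; edgeR adjusted p 0.764). The higher level was in HJ-23 replicate 1 alone, without which the fold change was -0.20. ABCG1 (ENSG00000160179), which exports cholesterol to lipoprotein particles, was at 12.7 and 13.5 CPM in the HJ-23 libraries, against 14.2 and 12.99 CPM in the DMSO libraries (log2 fold change -0.051, SE 0.17), and its fold change was 0.013 without DMSO replicate 1. NR1H2 (ENSG00000131408), LXR-beta, was at 42.1 and 50.3 CPM in the HJ-23 libraries, against 41.6 and 35.7 CPM in the DMSO libraries (log2 fold change 0.26, SE 0.18), and NR1H3 (ENSG00000025434), LXR-alpha, was at 15.7 and 17.3 CPM in the HJ-23 libraries, against 14.3 and 13.7 CPM in the DMSO libraries (log2 fold change 0.24, SE 0.17). The receptors were higher in both treated libraries, by little in NR1H2 replicate 1 (0.097 without HJ-23 replicate 2), and the groups of ABCG1 overlapped. None of the 4 passed with edgeR or DESeq2, and 0 had an unadjusted edgeR p below 0.05. The transcripts of NR1H2 and NR1H3 are 63.01% and 58.9% GC, and with the GC and length correction their log2 fold changes were 0.023 and 0.10.

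**Figure D3:**
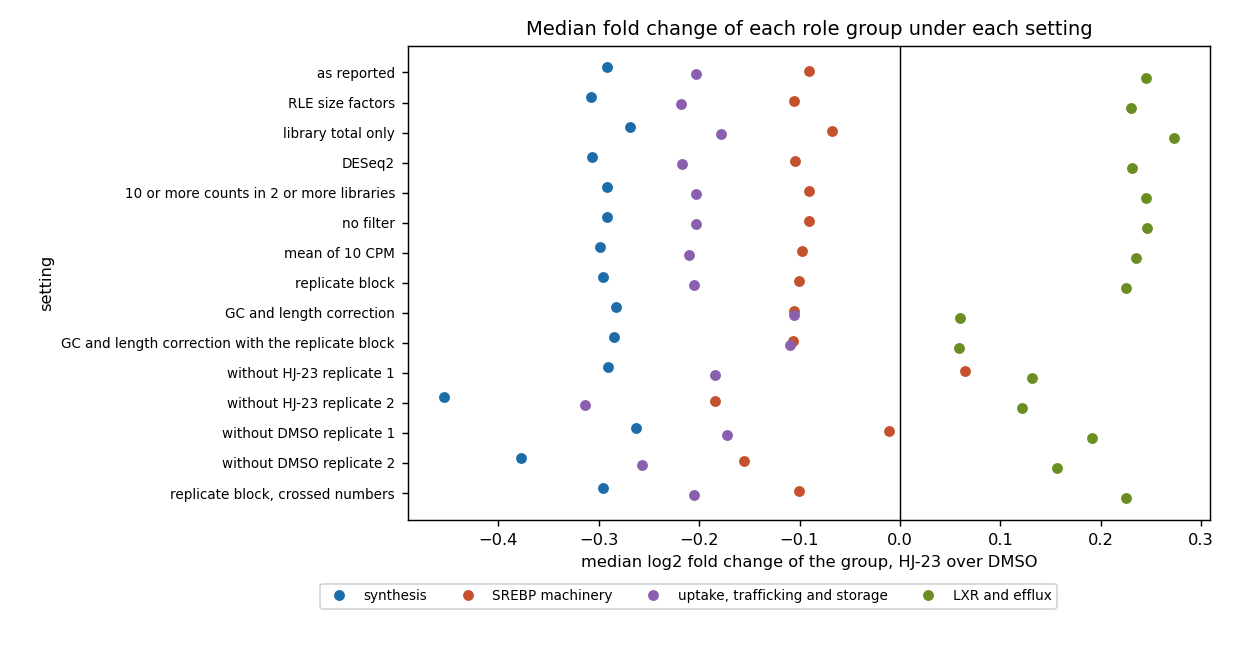
Median log2 fold change (x axis) of synthesis, SREBP machinery, uptake, trafficking and storage, and LXR and efflux genes as reported and under 14 other settings (rows). The synthesis median stays between -0.45 and -0.26, while that of the SREBP machinery crosses 0 without HJ-23 replicate 1.

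GC content moved with these results. Across 14047 genes tested, the log2 ratio of HJ-23 replicate 2 over replicate 1 correlated with transcript GC content (Spearman 0.63), that of DMSO replicate 2 over replicate 1 inversely (Spearman -0.37), and the HJ-23 over DMSO fold change positively (Spearman 0.37). Over the 36 members these values were 0.67, -0.35 and 0.51. The genes share the 4 libraries and differ in depth, so these values are descriptions, and the part of GC content in the results was not tested. The member GC content ran from 37.2% for INSIG2 to 63.9% for MVD. When each library's trend on GC content and length was removed, the Spearman correlation of the members' fold changes with GC was 0.14. Synthesis genes then had a median log2 fold change of -0.28, close to the uncorrected -0.29, and 13 of 20 were lower without overlap and 0 higher, against 24.6% and 26.9% of all genes in the corrected values. At an unadjusted p below 0.05 the corrected edgeR fit had 15 of 36 members (41.7%) lower and 1 (2.78%) higher, against 7.98% and 9.47% of all genes. No member passed after adjustment over all genes, where 0.0853% of genes passed as lower and 0.171% as higher.

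The correction moved individual genes across the overlap line. MVD, MVK and DHCR7, which overlapped before, were lower without overlap after it, with log2 fold changes of -0.38, -0.24 and -0.28. That also held for SREBF1 (adjusted p 0.167, edgeR with correction), SREBF2 and ABCG1 (-0.11), while CYP51A1, LBR, NPC1, SOAT1, MBTPS2, NR1H2 and NR1H3 then overlapped. INSIG1 stayed at -1.0001 (adjusted p 0.0931, edgeR), IDI1 at -0.67, STARD4 at -0.62, INSIG2 at -0.60 and MSMO1 at -0.53. HMGCS1 was at -1.05 with an unadjusted p of 0.0726 in the corrected edgeR fit. MBTPS1 was the 1 member higher at an unadjusted p below 0.05 (0.23, p 0.0297, edgeR with correction). The LXR and efflux median was 0.060 after the correction.

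**Figure D4:**
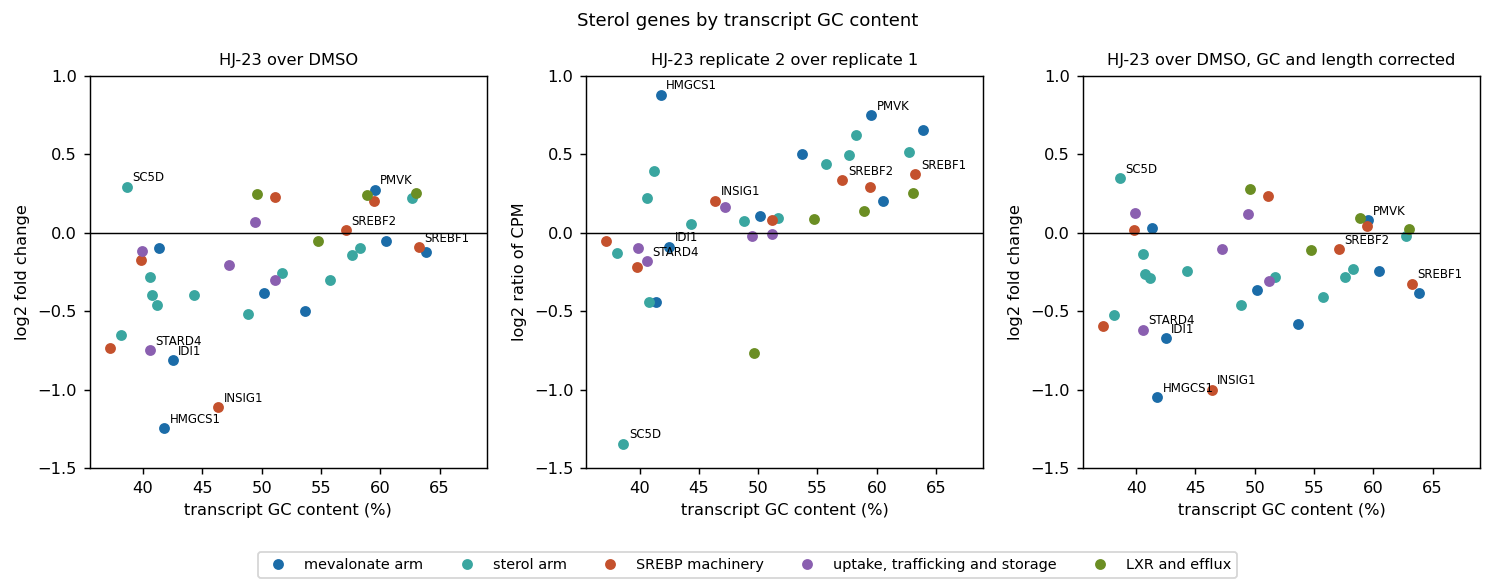
Members by transcript GC content (x axis, percent) against the log2 fold change of HJ-23 over DMSO (left), the log2 ratio of the 2 HJ-23 libraries (middle) and the fold change after the GC and length correction (right). The rising pattern in the left and middle panels is nearly level on the right, where INSIG1 and HMGCS1 are still the lowest points.

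Other genes of the pathway were taken from 6 lists of 65 genes, of which 62 were tested. None passed over all genes with edgeR or with DESeq2, and at an unadjusted edgeR p below 0.05 there were 6 higher and 4 lower, against 6.77% and 5.25% of all genes. With the GC and length correction the median log2 fold changes of the lists were 0.14 for isoprenoid branches, 0.14 for degradation, -0.059 for transport, -0.011 for SREBP cofactors and 0.18 for LXR partners. Isoprenoid branches, which use farnesyl and geranylgeranyl diphosphate for ubiquinone, dolichol and protein prenylation, had a median log2 fold change of 0.075 over 13 genes, with 5 higher and 1 lower without overlap, against 24.8% and 21.2% of all genes. COQ2, which attaches the ubiquinone side chain, was at 14.9 and 16.9 CPM in the HJ-23 libraries, against 12.3 and 13.4 CPM in the DMSO libraries. DHDDS, a dolichol-forming prenyltransferase subunit, was at 43.5 and 43.8 CPM in the HJ-23 libraries, against 37.9 and 37.3 CPM in the DMSO libraries, and RCE1, the protease that trims prenylated proteins, at 31.7 and 37.4 CPM in the HJ-23 libraries, against 30.9 and 25.9 CPM in the DMSO libraries. In these 3 genes both treated libraries were higher, and the corrected log2 fold change of RCE1 was 0.10, against 0.28 uncorrected.

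The ligases, erlins and extraction factors of sterol-regulated degradation in the endoplasmic reticulum had a median log2 fold change of 0.067 over 14 genes, with 6 higher and 2 lower without overlap, against 24.8% and 21.2% of all genes. UBE2J2, an endoplasmic reticulum ubiquitin-conjugating enzyme, was at 24.03 and 27.9 CPM in the HJ-23 libraries, against 18.8 and 18.8 CPM in the DMSO libraries (log2 fold change 0.47, SE 0.17), and AUP1, which recruits the conjugating enzyme UBE2G2, at 113 and 134 CPM in the HJ-23 libraries, against 98.9 and 89.5 CPM in the DMSO libraries (log2 fold change 0.39, SE 0.15). SYVN1, the ligase HRD1, was at 71.98 and 80.8 CPM in the HJ-23 libraries, against 104 and 91.3 CPM in the DMSO libraries (log2 fold change -0.36, SE 0.15). UBE2J2 and AUP1 were higher and SYVN1 lower in both treated libraries, with corrected log2 fold changes of 0.29, 0.26 and -0.46.

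Sterol transport proteins had a median log2 fold change of -0.10 over 16 tested genes, with 3 higher and 6 lower without overlap, against 24.8% and 21.2% of all genes. GRAMD1A and GRAMD1B, Aster proteins that carry plasma membrane cholesterol to the endoplasmic reticulum, had log2 fold changes of 0.45 (SE 0.15) and 0.73 (SE 0.28). GRAMD1A was at 139.9 and 164 CPM in the HJ-23 libraries, against 116 and 106 CPM in the DMSO libraries, and GRAMD1B at 9.31 and 5.64 CPM in the HJ-23 libraries, against 4.44 and 4.58 CPM in the DMSO libraries. NCEH1, a cholesteryl ester hydrolase, was at 39.1 and 34.03 CPM in the HJ-23 libraries, against 48.1 and 50.2 CPM in the DMSO libraries (log2 fold change -0.43, SE 0.16). Both Aster genes were higher and NCEH1 lower in both treated libraries. Without HJ-23 replicate 1 the fold change of GRAMD1B was 0.30, and the corrected values of GRAMD1A and NCEH1 were 0.26 and -0.27.

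Cofactors of SREBP had a median log2 fold change of -0.062 over 8 genes, with 1 higher and 4 lower without overlap, against 24.8% and 21.2% of all genes. LPIN1, a phosphatidate phosphatase that also acts on nuclear SREBP and is an SREBP target, was at 91.9 and 90.9 CPM in the HJ-23 libraries, against 135 and 128 CPM in the DMSO libraries (log2 fold change -0.53, SE 0.13; unadjusted p 0.00711, adjusted p 0.278, edgeR). The NF-Y subunits differed, NFYA being at 60.3 and 55.2 CPM in the HJ-23 libraries, against 71.3 and 76.3 CPM in the DMSO libraries and NFYC at 25.6 and 27.5 CPM in the HJ-23 libraries, against 19.95 and 19.9 CPM in the DMSO libraries. NFYA was lower and NFYC higher, with log2 fold changes of -0.35 and 0.42. The LXR partner and target list had a median log2 fold change of 0.32 over 8 genes, with 3 higher and 2 lower without overlap, against 24.8% and 21.2% of all genes. The corepressor NCOR1 was at 28.99 and 24.8 CPM in the HJ-23 libraries, against 40.4 and 37.2 CPM in the DMSO libraries (log2 fold change -0.53, SE 0.17), and the partner receptor RXRA at 33.1 and 40.5 CPM in the HJ-23 libraries, against 30.2 and 27.3 CPM in the DMSO libraries (log2 fold change 0.35, SE 0.18). RXRA was higher and NCOR1 lower in both treated libraries, with corrected log2 fold changes of 0.16 and -0.43. Of the oxysterol enzymes CYP27A1, CYP46A1 and SULT2B1 were tested, all below 5 CPM, and CH25H and CYP7B1 had at most 2 counts in a library.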

How the data were processed

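The authors deposited 1 table per library of raw counts per Ensembl gene, as the whole-number values show. FastQC, Trimmomatic, HISAT2, bedtools and RSEM are named in the submitters' processing notes; their versions and roles, strandedness and the build are not stated there, so members are placed by identifier and coordinates are given only for RefSeq promoter windows. Among counts of 1 to 8, 69.6% to 72.3% were even in a library, so both mates of a pair were probably counted for most fragments. Symbols came from a gene name table; GC content and length are medians over GENCODE 29 transcripts. Exons of 9 members (ACAT2, MVK, GGPS1, TM7SF2, NPC1, NPC2, SREBF1, MBTPS2, NR1H3) share bases with another counted gene, so their values are uncertain.

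The fit across all genes used edgeR 4.0.16 under R 4.3.3 (TMM factors 0.983 to 1.03, filterByExpr with the group, robust dispersions, legacy quasi-likelihood F-test, Benjamini-Hochberg over 14062 genes, threshold 0.05; 2 residual degrees of freedom, biological coefficient of variation 19.6%; SE taken as the fold change over the square root of F). DESeq2 1.42.0 tested 13476 genes after its own filter. The correction fitted smooth trends of each library's deviation from the mean log2 CPM on GC content and log length (mgcv 1.9.3) and entered them as offsets. No 2 libraries were alike enough to be one deposited again (chi-square over its degrees of freedom 33.1 to 126.1). Fits were tested on simulated counts drawn without any GC trend between libraries, so that test does not cover the GC trends described above. The members, lists and tests were chosen with earlier results of these data known. Values in each library are given for members whose groups do not overlap at a mean of at least 5 CPM and for 7 fixed genes (INSIG1, INSIG2, SREBF1, SREBF2, SCAP, ABCA1, ABCG1); other members whose values are given were chosen after their values were seen. From each other list up to 3 genes with the smallest p and at least 5 CPM are named, except 1 that is not reported here. A planned comparison of the INSIG1 and INSIG2 proteins was not made.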

Additional observations from a re-analysis of the deposited data

How the results depend on the processing

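Of 8 higher and 4 lower genes in the genome, the counts became 161 and 150 with DESeq2, 18 and 13 with no filter, 0 and 0 at a mean of 10 CPM (1253 at an unadjusted p below 0.05, edgeR), and 24 and 12 with the GC and length correction; leaving out 1 library gave 0 to 112 higher and 0 to 161 lower, with 0 and 0 without either HJ-23 replicate (3501 and 1377 genes at an unadjusted p below 0.05 without replicates 1 and 2, edgeR). Members past the threshold, 0 as reported, were 6 with DESeq2 and 0 to 2 on leaving out 1 library, all lower. Replicate numbers do not pair the libraries by label, and deviations of same-numbered libraries from their group means correlated negatively across genes (r = -0.24). Replicate 2 over replicate 1 ran opposite ways with GC content in the groups (Spearman 0.63 in HJ-23, -0.37 in DMSO). This r therefore cannot tell whether libraries were paired, which was not tested. With the replicate block the genome-wide counts were 136 and 158 and the members called 3 (HMGCS1, IDI1 and INSIG1), and with the block and the GC and length correction together the counts were 6 and 4 and no member was called (INSIG1 adjusted p 0.246, edgeR). With crossed numbers as the block, chosen after seeing the data, they were 454 and 512, and 7 members. Leaving out 1 library gave medians of -0.45 to -0.26 for synthesis, -0.31 to -0.17 for uptake, trafficking and storage, 0.12 to 0.19 for LXR and efflux, and -0.18 to 0.065 for the SREBP machinery. With the GC and length correction, alone and with the replicate block, the uptake median was -0.105 and -0.109 and the LXR median 0.060 and 0.059. The same 2 corrected fits reversed MBTPS2 (0.016 and 0.013), SOAT1 (0.129 and 0.121), SREBF2 (-0.105 and -0.106), GGPS1 (0.0338 and 0.0341) and TM7SF2 (-0.0211 and -0.0230). Leaving out 1 library reversed ABCA1 (-0.20 to 0.56), ABCG1 (-0.14 to 0.013), SREBF1 (-0.31 to 0.065), SREBF2 (-0.18 to 0.16), DHCR7 (-0.43 to 0.068), GGPS1 (-0.35 to 0.085), LSS (-0.47 to 0.18), MVD (-0.51 to 0.15), MVK (-0.18 to 0.023), PMVK (-0.17 to 0.58), SC5D (-0.55 to 0.79) and TM7SF2 (-0.081 to 0.44). The other 22 of the 36 members kept their sign under each of the 14 settings that tested them, and the causes of the changes were not tested.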

Other observations

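CLDN4, which encodes the tight junction protein claudin 4 and was on the epithelial marker list, had 15428 and 78 counts in HJ-23 replicates 1 and 2 and 13958 and 714 counts in DMSO replicates 1 and 2. The split followed the replicate number and not the treatment. CDH1, another junction gene on the list, was also higher in replicate 1 of each group, but by far less. It was at 83.97 and 73.7 CPM in the HJ-23 libraries, against 84.3 and 75.6 CPM in the DMSO libraries. SC5D differed between the HJ-23 libraries in the same sense (2151 counts in replicate 1 and 822 in replicate 2) but not between the DMSO libraries (1081 and 1001 counts).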
